A study of Mus musculus with 6 samples.

Results

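Long noncoding RNA genes that were expressed in LPS-activated bone marrow-derived macrophages (BMDMs) were described here from 3′ end sequencing of Control macrophages and of macrophages with a myeloid deletion in hnRNPD. The genes were those annotated in the deposited table as lincRNA, lncRNA, antisense or processed transcript, and were chosen by their raw counts: for each gene the transcript with most counts was taken, and genes with a mean of at least 10 over the 6 libraries were kept. Of 9385 such genes listed, 810 had at least 1 count and 65 passed the minimum, and in all 8493 of the 55254 genes listed passed it. The 65 genes comprised 28 lincRNA, 14 antisense and 23 processed transcript genes, and no gene annotated as lncRNA. The minimum used the counts of all 6 libraries, so the level of the genes is a description and the comparison of the groups used the same libraries. Control BMDMs came from C57BL/6J mice of genotype hnRNPDfl/fl, and M-Δx3,4 BMDMs from C57BL/6J mice of genotype LysCre+hnRNPDfl/fl. Both groups thus carry the loxP-flanked hnRNPD alleles and differ in the Cre transgene, which is driven by the lysozyme 2 promoter in myeloid cells and removes exons 3 and 4. All 6 cultures, 3 per group, were grown for 10 days in medium with L929-conditioned supernatant and were given 100 ng/ml LPS for 4 hrs, so no library shows macrophages before LPS. A group without floxed alleles, or with Cre alone, was not analysed here. The labels do not say whether the cultures of a group came from separate mice, and p-values measure the spread between these cultures.

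Long noncoding RNAs are transcribed like mRNAs, and many are spliced and polyadenylated, but they are annotated without a protein product. Whether any of the genes below is translated was not tested. Some build nuclear bodies, some carry small nucleolar RNAs (snoRNAs) or microRNAs in their introns, and antisense RNAs lie opposite another gene. In macrophages several are induced by Toll-like receptor ligands. AUF1, the protein of hnRNPD, binds AU-rich RNA and occurs in 4 isoforms.

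Counts summed over all transcripts ranged from 5852374 to 9008878 per library, and with 1 transcript per gene from 2503125 to 3846215. The 3′ windows of Hnrnpd lie outside exons 3 and 4, so they do not check the deletion. The p37 transcript had 178, 104 and 69.6 normalized counts in Control and 52.8, 12.6 and 16 in M-Δx3,4 BMDMs, with no overlap. The more abundant transcript ENSMUST00000172361 had 336, 186 and 104 in Control and 138, 124 and 160 in M-Δx3,4 BMDMs, and its groups overlapped (log2 fold change -0.57, SE 0.41). All 8 macrophage markers (Adgre1, Csf1r, Cd68, Lyz2, Itgam, Fcgr1, Mertk and Cd14) passed the same minimum, and together they had 6452 to 7034 normalized counts in Control and 5413 to 7072 in M-Δx3,4 libraries. Neutrophil markers had 377 to 688 in Control and 472 to 710 in M-Δx3,4 libraries, with 4 of 7 past the minimum and Elane at 0. B cell markers had 77.9 to 107 and 51.2 to 83.5, with 2 of 6 past the minimum (Cd79b and Ighm). T cell markers had 10.4 to 45.3 and 12.7 to 25.2, with 1 of 5 past it (Cd3d) and Cd3e, Cd3g and Trac at 0. No dendritic cell, fibroblast, erythroid or mast cell marker passed the minimum. The part of other cells in the values below was not tested.

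Every long noncoding RNA transcript was listed with 1 window of 249 bases. That window starts 1 base past the annotated 3′ end, which held for 60 of the 61 genes whose transcript was found in GENCODE vM21. The genes needed no correction for window length, but a window holds only the reads of ends that fall in it, so an order of counts is not an order of the amounts of these RNAs. The sequence of the windows themselves was not used here, and the last 30 bases of 7 transcripts in front of them are shown, 5′ to 3′, because the results below turn on these ends. Capitals mark AATAAA or ATTAAA, the hexamers that direct cleavage and polyadenylation, searched on the strand of the transcript. The Gm49207 transcript ends in a run of 12 A, and Gm45733 in a longer stretch of A close to its end.
Neat1: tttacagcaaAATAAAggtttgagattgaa
Malat1: agaagattagaaaatggaagtgaaagacga
Snhg8: tttatattaAATAAAagatgtttggtgtgt
AW112010: ttcagtcacatAATAAAtttcgattgtgca
Gm10076: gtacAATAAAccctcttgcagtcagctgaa
Gm49207: aaacagaattttaaaggcaaaaaaaaaaaa
Gm45733: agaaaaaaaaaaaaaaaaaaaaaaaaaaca
Among the 58 genes with a transcript of at least 300 bases in GENCODE, 29 had one of these hexamers in the last 50 bases. The hexamers were in 41.1% of all long noncoding RNA transcripts listed and in 77.1% of protein-coding genes past the same minimum. The pentamer ATTTA, the core of the AU-rich elements that AUF1 binds, was in the last 300 bases of 34.5% of the 58, of 32.0% of all long noncoding RNA transcripts and of 39.0% of the coding genes.

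The windows fell in different places on mm10. For 31 genes the window lay in an exon of another isoform of the same gene, with 48.0% of the counts of the 65 genes, and for 25 it lay beyond every annotated exon of that strand, with 44.1%. For 6 genes, Gm21982, CAAA01066123.1, Gm45193, AC139579.1, Gm20427 and Gm12940, it lay in an exon or a counted region of a coding gene on the same strand (4.85% of the counts). Their reads cannot be told apart with certainty from those of Rbm42, Rps6ka4, Herc6, Pgap2, H2-Ke6 and Sfpq. The cases were unlike. The highest raw sum of an overlapped region on the same strand was 1348 for Gm21982, beside 1282 of its own. For Gm45193 it was 2, beside 119. The windows of Mir22hg and 6530402F18Rik lay in introns of Tlcd2 and Ntng2. The counts followed the strand: of 507 windows inside a region counted on the opposite strand, 331 (65.3%) had more counts than that region, against 7 of 119 (5.88%) on the same strand. Of the 61 transcripts in GENCODE vM21, 13 have another transcript type there than in the deposited table, and for Gm10553 and Gm17092 that type is protein-coding. Ifi30, listed as a processed transcript, is known as the gene of a lysosomal thiol reductase.

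The 65 genes covered a range from 9.53 to 1251 mean normalized counts, with a median of 33.8. There were 11 genes above 100, 29 from 20 to 100 and 25 under 20. The first 2 genes, Gm49207 and Zeb2os, held 36.9% of the summed normalized counts, and the first 10 held 72.5%. The genes took 0.219% (95% Wilson interval 0.213 to 0.225), 0.246% (0.240 to 0.252) and 0.216% (0.211 to 0.222) of the counts of 1 transcript per gene in the Control libraries. In the M-Δx3,4 libraries they took 0.223% (0.218 to 0.228), 0.236% (0.231 to 0.241) and 0.203% (0.198 to 0.207). The intervals treat every read as independent, although reads were counted without molecular identifiers, and they do not cover the spread between cultures. The groups overlapped, at 0.227% ± 0.0162 in Control and 0.221% ± 0.0168 in M-Δx3,4 BMDMs (SD, n = 3, exact permutation test, two-sided, p = 0.7), where 3 against 3 cannot give a p under 0.1.

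**Figure D1:**
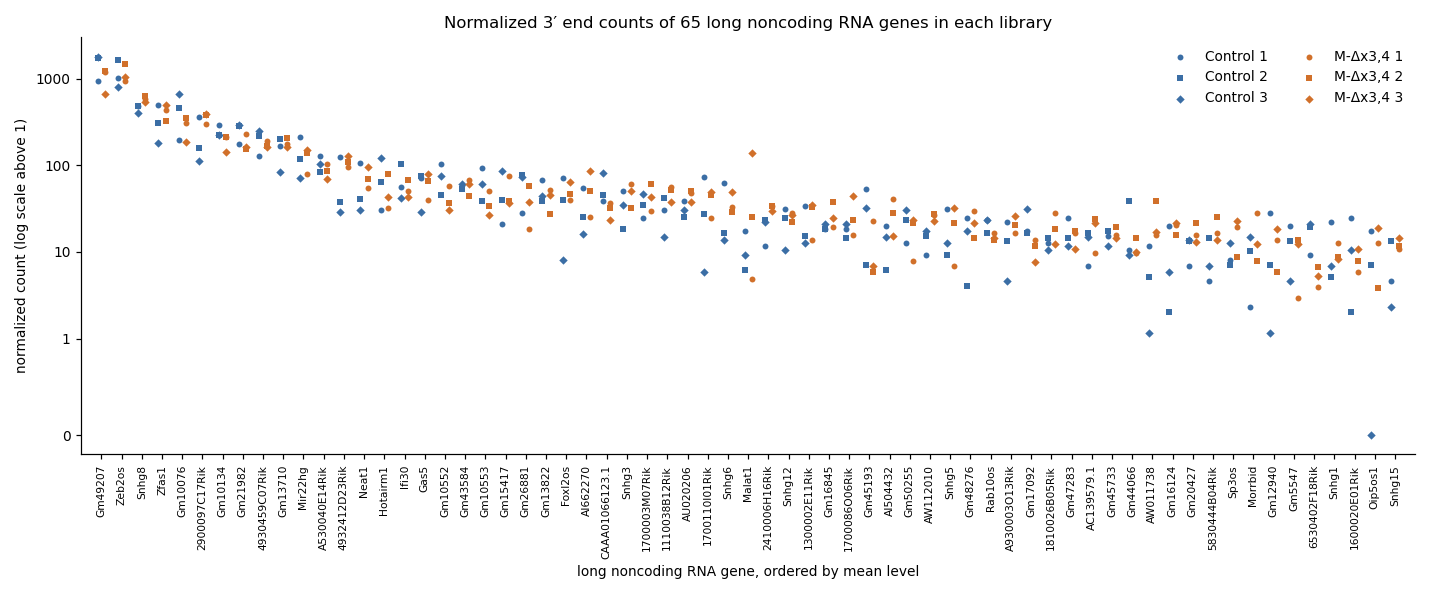
Normalized 3′ end counts (log scale above 1) of the 65 genes, ordered by mean level, with 1 point per library, blue for Control and orange for M-Δx3,4. Levels ran from 1251 to 9.53 on average, and the points of the groups mixed for most genes.

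The most abundant gene, Gm49207 (chr15:7760993-7761241, plus strand), had 926, 1714 and 1785 normalized counts in Control and 1182, 1233 and 667 in M-Δx3,4 libraries. Its transcript is a single exon that matched Ahsa1, which encodes an activator of the chaperone HSP90, at 99.6% identity over 268 bases. Gm10076 (chr14:105682212-105682460, plus strand) matched Rpl41, a ribosomal protein gene, at 99.3% over 300 bases, and had 198, 455 and 660 normalized counts in Control and 309, 355 and 186 in M-Δx3,4 libraries. For both genes Control replicate 1 and M-Δx3,4 replicate 3 were the lowest libraries and the groups overlapped. Ahsa1 itself had 285, 429 and 383 normalized counts in Control and 373, 391 and 260 in M-Δx3,4 libraries, and Rpl41 1346, 2315 and 3021 against 2054, 2299 and 1467. In these coding genes, too, the lowest libraries were Control replicate 1 and M-Δx3,4 replicate 3. Over 11757 transcripts the deviations of these libraries from their group means correlated at 0.53, so a shared pattern of them is not particular to these genes. Their log2 fold changes were -0.10 (SE 0.32) for Ahsa1 and -0.20 (SE 0.34) for Rpl41, beside -0.52 (SE 0.35) for Gm49207 and -0.63 (SE 0.41) for Gm10076. In all, 13 genes had a stretch of at least 100 bases in the end of their transcript with at least 95% identity to another gene, and held 32.2% of the raw counts of the 65. Among them Gm43584 matched the histone gene H3f3b at 98.9% over 179 bases and Gm45733 matched Baz2a at 99.3% over 273 bases. The ends of Gm10552 and Gm10553 matched each other and A530040E14Rik. Not all of the 13 are copies at another place. Gm21982, CAAA01066123.1, Gm45193, AC139579.1 and Gm20427 matched the coding gene that their window overlaps, and Snhg1 matched Snord22, whose counted window it overlaps. For the others, how the aligner divided reads was not tested, and their values are uncertain for that reason. The matches are those of transcript ends and not of the counted windows.

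**Figure D2:**
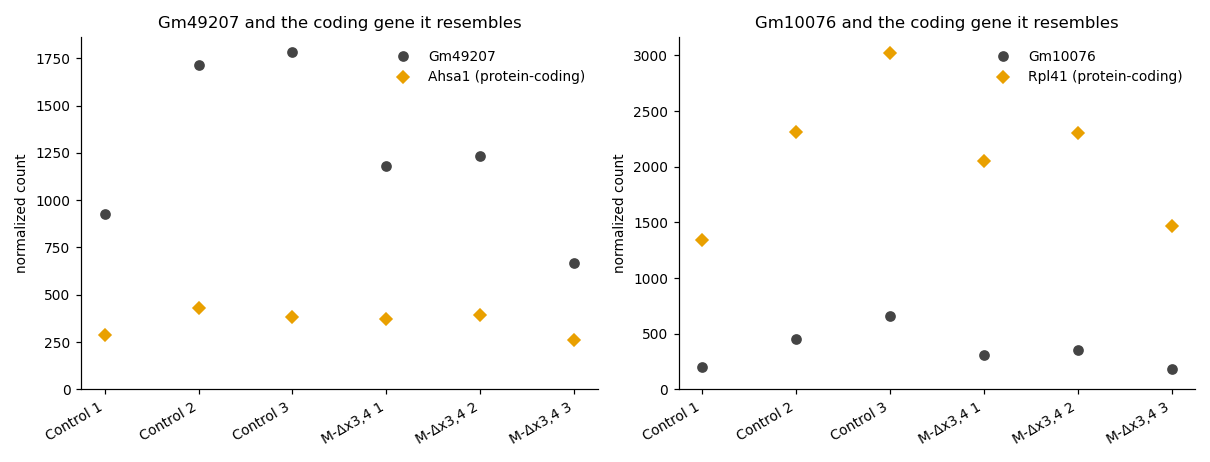
Normalized counts per library of Gm49207 beside Ahsa1, and of Gm10076 beside Rpl41, on linear axes from 0. Control replicate 1 and M-Δx3,4 replicate 3 are the lowest libraries of all 4 genes.

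Among RNAs of nuclear architecture, imprinting and dosage, 18 of 24 symbols were in the table under these annotations, 12 had a count and 4 passed the minimum: Neat1, Malat1, Gas5 and Oip5os1. Neat1 builds paraspeckles and has a short polyadenylated and a long isoform. It had 107, 40.9 and 30.2 normalized counts in Control and 54.8, 69.9 and 94.8 in M-Δx3,4 libraries, with overlapping groups and a log2 fold change of 0.31 (95% interval -0.70 to 1.31). All but 4 of its raw counts lay in the window that starts 1 base past the end of the short isoform (chr19:5842058-5842306, minus strand). The raw counts there were 92, 40 and 26 in Control and 56, 72 and 124 in M-Δx3,4 libraries. That window lies in an exon of another isoform of Neat1, so its reads cannot be assigned to the short isoform alone. The window at the last annotated end, 17.6 kb downstream, and the one 0.607 kb before it belong to long isoforms and had 0 counts in every library, which allows up to 3 counts in each. The end of the short isoform carries AATAAA. The library kit primes on oligo(dT), and the long isoform is known to end without a poly(A) tail.

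Malat1 is an abundant RNA of nuclear speckles whose 3′ end is made by RNase P cleavage and carries no poly(A) tail. Its windows at that end had 2 counts in Control replicate 1 and 0 in every other library. Its counts came from a window 6.23 kb upstream (chr19:5801667-5801915, minus strand) that follows a short annotated isoform whose last 50 bases held neither hexamer. That window, too, lies in an exon of another isoform of Malat1, so its reads cannot be assigned to the short isoform alone. There Malat1 had 17.4, 6.13 and 9.28 normalized counts in Control and 4.89, 25.2 and 140 in M-Δx3,4 libraries. The groups overlapped, and M-Δx3,4 replicate 1 was the lowest library of all. Malat1 passed the threshold of the comparison given below (log2 fold change 2.38, SE 0.84, edgeR adjusted p = 0.984), but this rested on M-Δx3,4 replicate 3, without which the log2 fold change was 0.46 and did not pass. It did not pass by limma-voom (1.45) either. Oip5os1, also called Cyrano, ranged from 0 to 17.4 normalized counts in Control and from 3.88 to 19.1 in M-Δx3,4 libraries.

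**Figure D3:**
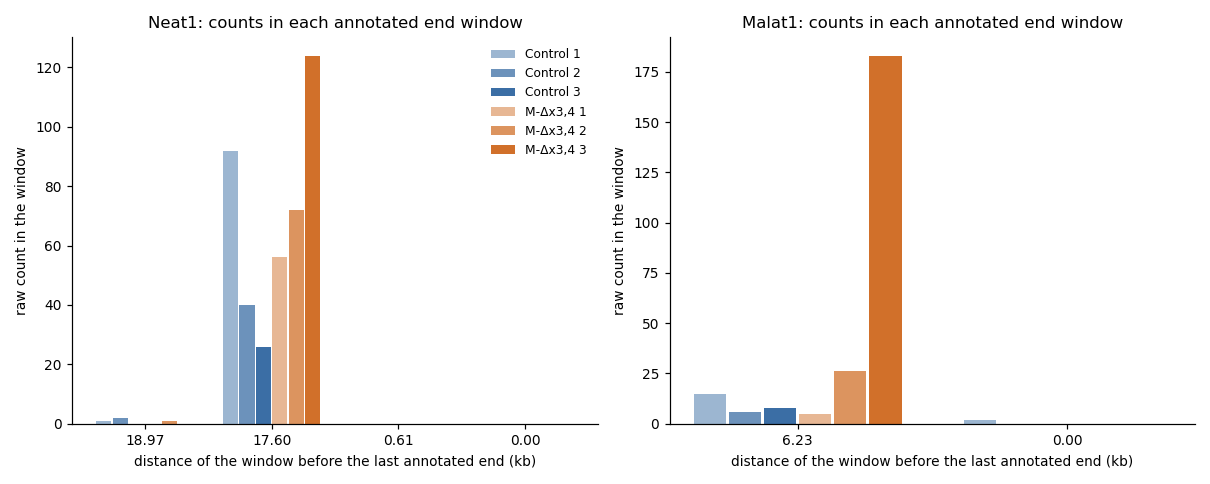
Raw counts per library in each annotated end window of Neat1 and Malat1, placed by the distance before the last annotated end in kb. Nearly all counts of Neat1 lay 17.6 kb and those of Malat1 6.23 kb before the last end, and M-Δx3,4 replicate 3 had 183 counts of Malat1.

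Genes that host snoRNAs formed the largest group with a known role. Of 23 symbols, 20 had a count and 10 passed the minimum, 9 with a log2 fold change above 0 (beside 48.0% of all transcripts tested) and 1 below, none past the threshold, and their median was 0.31. Their summed level was 1266, 959 and 697 normalized counts in Control and 1236, 1166 and 1303 in M-Δx3,4 libraries, so that the groups overlapped through Control replicate 1 while Control replicates 2 and 3 were below every M-Δx3,4 library. Snhg8 (chr3:123507308-123507556, minus strand) was the most abundant. It had 484, 479 and 398 normalized counts in Control and 580, 633 and 531 in M-Δx3,4 libraries, 454 ± 48.2 against 581 ± 51.0 (SD, n = 3). All M-Δx3,4 libraries were above all Control libraries (log2 fold change 0.36, SE 0.30, 95% interval -0.28 to 0.99, edgeR adjusted p = 0.984, exact permutation test, two-sided, p = 0.1). With each library left out in turn the log2 fold change of Snhg8 stayed between 0.28 and 0.42. Zfas1, which lies near the interferon-induced gene Znfx1 on the other strand, had 496, 304 and 179 in Control and 434, 324 and 498 in M-Δx3,4 libraries. Gas5, whose RNA accumulates when growth stops, had 70.9, 74.6 and 29.0 in Control and 40.1, 65.1 and 80.2 in M-Δx3,4 libraries. Control replicate 3 was the lowest library of both. Snhg1, Snhg3, Snhg5, Snhg6, Snhg12, Snhg15 and 1810026B05Rik were below 70 normalized counts in every library, with log2 fold changes from -0.19 for Snhg1 to 0.84 for Snhg15 and overlapping groups. 1810026B05Rik was put in this list by name, and whether it hosts a snoRNA was not checked. Windows of 7 of the 65 genes, among them Gas5, Snhg1, Snhg5 and Snhg12, also overlap the counted window of a small RNA.

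Of the microRNA host genes, 7 of 18 had a count and only Mir22hg passed the minimum. It is the precursor of miR-22, whose mature sequences are shown with the seed, bases 2 to 8, in capitals (RefSeq, GRCm38.p6).
miR-22-5p: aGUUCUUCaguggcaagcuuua
miR-22-3p: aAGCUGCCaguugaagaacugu
Mir22hg (chr11:75466677-75466925, plus strand) had 210, 117 and 71.9 normalized counts in Control and 80.2, 138 and 148 in M-Δx3,4 libraries. The highest library and the lowest were both Control libraries, and the log2 fold change was -0.12 (95% interval -1.02 to 0.78). The host RNA was counted, and mature miR-22 was not measured.

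Among RNAs of the innate immune and LPS response, 7 passed the minimum. AW112010, an LPS-induced transcript of macrophages (chr19:11047368-11047616, minus strand), had 9.30, 15.3 and 17.4 normalized counts in Control and 26.4, 27.2 and 22.9 in M-Δx3,4 libraries. The libraries did not overlap (14 ± 4.21 against 25.5 ± 2.27, SD, n = 3, exact permutation test, two-sided, p = 0.1), and the log2 fold change of 0.86 (SE 0.47, edgeR adjusted p = 0.984) did not pass the threshold. Morrbid, which represses the apoptosis gene Bcl2l11 in short-lived myeloid cells, had 2.32, 10.2 and 15.1 in Control and 28.4, 7.77 and 12.2 in M-Δx3,4 libraries, with overlapping groups. Bcl2l11 had a log2 fold change of 0.08 (SE 0.35). A530040E14Rik had 129, 82.8 and 102 in Control and 103, 86.4 and 70.3 in M-Δx3,4 libraries. Mir155hg, the precursor of the LPS-induced miR-155, had a mean raw count of 1.67 and did not pass the minimum.

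Of 292 antisense genes named so by their symbol, 46 had a count and 6 passed the minimum. Zeb2os (chr2:45113753-45114001, plus strand), opposite the gene of the transcription factor Zeb2, had 1014, 1642 and 803 normalized counts in Control and 949, 1456 and 1043 in M-Δx3,4 libraries. The group means were nearly equal, at 1153 ± 437 and 1149 ± 269.5 (SD, n = 3), and the 95% interval of the log2 fold change ran from -0.73 to 0.72. Zeb2 had 129, 81.7 and 38.3 in Control and 150, 78.7 and 226 in M-Δx3,4 libraries. Rab10os, Sp3os and Foxl2os each had overlapping groups, with log2 fold changes of -0.48, 0.87 and 0.33, and Control replicate 3 had 8.12 normalized counts of Foxl2os against 39.8 to 72.1 in the other libraries. The biotype antisense, a wider class, had 14 genes, of which 4 had a log2 fold change above 0, with a median of -0.37. The median was 0.32 for the 28 lincRNA and 0.33 for the 23 processed transcript genes, of which 20 and 15 were above 0. Whether these biotypes differ was not tested, and the antisense class holds Gm10552 and Gm10553, which share sequence.

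All 65 genes were tested in a fit of the 32475 transcripts that passed the filter, by edgeR's quasi-likelihood test, with a threshold of 0.05 on the unadjusted p and of 1 on the size of the log2 fold change. There were 2 genes past it that were higher in M-Δx3,4 BMDMs, Malat1 and AW011738, and 1 that was lower, 6530402F18Rik. That is 4.62% of the 65, beside 3.3% of all transcripts tested (1.25% higher and 2.05% lower), and the count is near that background. The background is unlike the 65 in 2 ways, wherever a share of all transcripts tested is given. It holds several transcripts of a gene, which can share reads (11873 remained with 1 transcript per gene), and its filter was lower than the minimum of the 65. No gene of the 65 had an adjusted p under 0.05, where edgeR gave 0.984 as the smallest, and 3 had an unadjusted p under 0.05. Among all transcripts tested 0 had an adjusted p under 0.05, and 4.13% an unadjusted one. Log2 fold changes ran from -1.61 to 2.38, with 39 of 65 above 0 (beside 48.0% of all transcripts tested) and 26 below, and their median was 0.22 beside -0.03 for all transcripts tested. The typical 95% interval reached 1.05 to either side, and for 4 of the 65 genes it lay within -1 and 1, and the intervals of the others held a change of 2-fold or more.

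**Figure D4:**
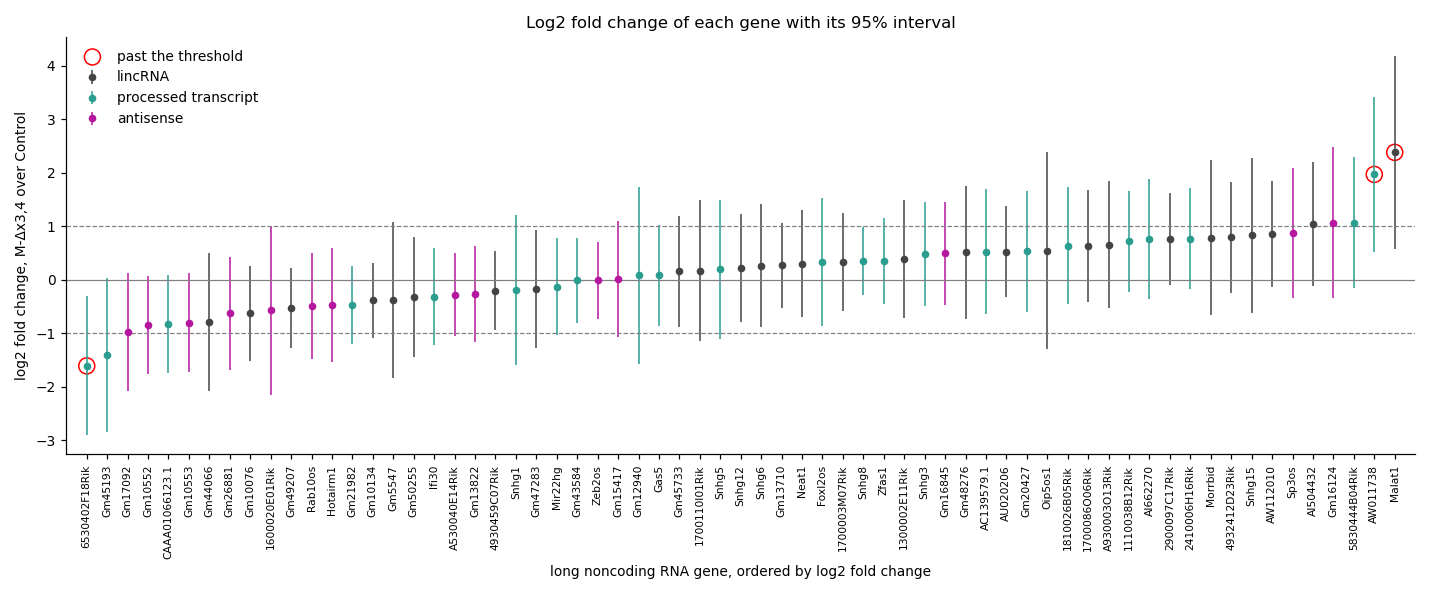
Log2 fold change of M-Δx3,4 over Control for the 65 genes in ascending order, with 95% intervals from edgeR, coloured by biotype and ringed where the threshold was passed. The 3 ringed genes are 6530402F18Rik at -1.61, AW011738 at 1.97 and Malat1 at 2.38, and most intervals span 0.

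AW011738 (chr4:156210564-156210812, plus strand) had Perm1 as its nearest coding gene. It had 11.6, 5.11 and 1.16 normalized counts in Control and 15.7, 38.8 and 16.8 in M-Δx3,4 libraries, 5.96 ± 5.28 against 23.8 ± 13.1 (SD, n = 3). Every M-Δx3,4 library was above every Control library (log2 fold change 1.97, SE 0.68, edgeR adjusted p = 0.984, exact permutation test, two-sided, p = 0.1). Without M-Δx3,4 replicate 2 the log2 fold change was 1.43 and did not pass the threshold. 6530402F18Rik (chr2:29244858-29245106, minus strand), within an intron of Ntng2, had 9.30, 19.4 and 20.9 normalized counts in Control and 3.91, 6.80 and 5.35 in M-Δx3,4 libraries, 16.5 ± 6.31 against 5.35 ± 1.44 (SD, n = 3). Its libraries did not overlap (log2 fold change -1.61, SE 0.61, edgeR adjusted p = 0.984), and without Control replicate 2, Control replicate 3 or M-Δx3,4 replicate 1 it no longer passed, at -1.47, -1.40 and -1.44. Ntng2 had at most 3.49 normalized counts in any library. Both genes were near the minimum count.

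For 8 of the 65 genes (12.3%) Control and M-Δx3,4 libraries were fully apart, beside 8.88% of all transcripts tested. In 4 of them M-Δx3,4 was higher (Snhg8, AW112010, AW011738 and 2410006H16Rik), beside 4.1% of all transcripts, and in 4 lower (6530402F18Rik, Gm17092, CAAA01066123.1 and Gm10134), beside 4.78%. Gm17092 (chr5:99979664-99979912, plus strand) lies 726 bases from Hnrnpd, the gene targeted in these mice, and on the other strand. It had 17.4, 16.3 and 31.3 normalized counts in Control and 13.7, 11.7 and 7.64 in M-Δx3,4 libraries (log2 fold change -0.98, SE 0.52, 95% interval -2.08 to 0.12, edgeR adjusted p = 0.984). It was named after its values were seen, and did not pass the threshold. Gm10134 had 288, 223 and 222 in Control and 209, 211 and 144 in M-Δx3,4 libraries, with a log2 fold change of -0.38 (SE 0.33). 2900097C17Rik, the sixth most abundant gene, had 361, 158 and 113 in Control and 302, 383 and 388 in M-Δx3,4 libraries, and overlapped through Control replicate 1.

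The Control libraries differed more among themselves than the M-Δx3,4 libraries did. For the median gene the highest Control library had 2.68 times the lowest, and the highest M-Δx3,4 library 1.82 times the lowest. Control replicate 3 was the lowest of the 6 libraries for 25 of the 65 genes (38.5%), beside 28.4% of 22114 tested transcripts with the same minimum mean count. Control replicate 1 was the highest for 18 genes (27.7%, beside 19.9%). Control replicate 3 was the highest for 15.4% of the 65 genes, beside 29.0% of those transcripts. Without Control replicate 1 the number of genes past the threshold became 10 higher and 2 lower, while the share of all transcripts tested rose to 6.23% higher and 4.18% lower. Without Control replicate 3 it became 2 higher and 0 lower, beside 1.16% and 1.18% of all transcripts. The median log2 fold change of the 65 genes was 0.41 and 0.01 in these fits. No batch is named in the labels, and the part of library quality in these values was not tested.

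**Figure D5:**
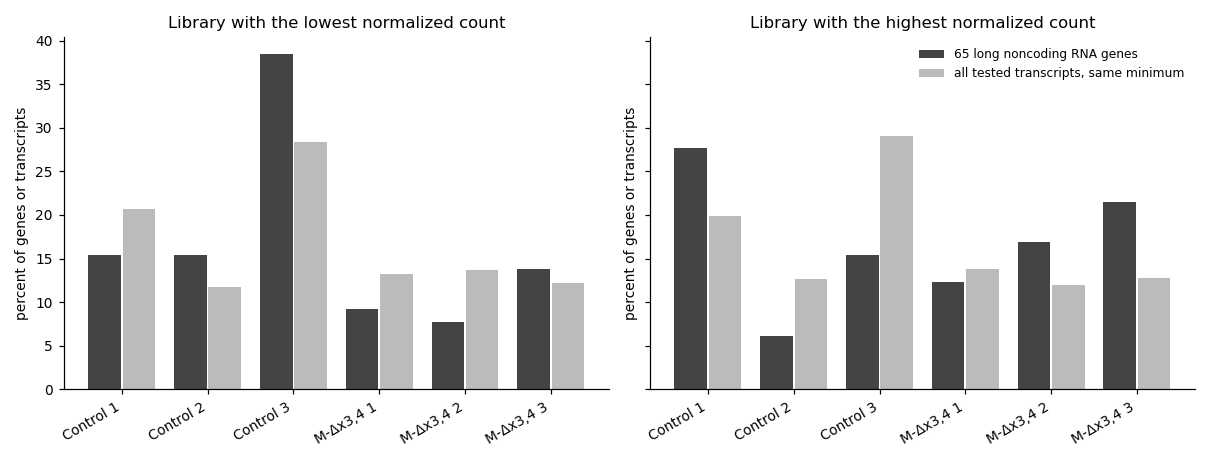
Percent of the 65 genes, and of all tested transcripts with the same minimum mean count, for which each library had the lowest (left) or highest (right) normalized count. Control replicate 3 was the lowest library for 38.5% of the 65 genes and 28.4% of the transcripts.

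Genes at the edge of the minimum were alike in counts. The last 3 inside were 6530402F18Rik, Snhg15 and 1600020E01Rik, with mean raw counts of 10.5, 10.2 and 10.0, and the first 3 outside were Hand2os1 and Pard3bos3 with 9.17 each and Gm26782 with 9.0. Below them, 557 of the 810 genes with a count had a mean above 0 and up to 1, and 188 a mean above 1 and under 10.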

How the data were processed

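The 6 libraries were made from total RNA with the QuantSeq 3′ kit for Ion Torrent, and the tools named in the submitters' processing notes are TopHat2 2.1.1, Bowtie2 2.3.2, bedtools and DESeq2, with builds mm10 and GRCm38.p6. The deposited raw counts, per 3′ UTR region, were made by the authors with metaseqR2 without normalization. The deposited table of comparisons was not used. It holds the authors' fold changes and p-values. Regions were summed per transcript. Library factors were those of the median of ratios (RLE), and transcripts above the median normalized count, 4.89, in at least 1 library were kept. The groups were compared in R 4.3.3 with edgeR 4.0.16 (quasi-likelihood test), and p-values were adjusted after Benjamini and Hochberg over all 32475 transcripts tested. Standard errors were computed from F, and 95% intervals from the total degrees of freedom of the edgeR test, residual plus prior (15.05). For single genes an exact two-sided permutation test was added. Positions are those of the deposited table on mm10, and sequences, exons and transcript types come from GENCODE vM21, with copies found by blastn 2.17.0. The procedure was tested on simulated counts.

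Counts summed over all transcripts were 5852374, 6666525 and 5944470 in Control and 6627536, 7050362 and 9008878 in M-Δx3,4. In these sums a read can count for several transcripts of a gene. With 1 transcript per gene the sums were 2503125, 2865857 and 2510427 in Control and 2866952, 3049317 and 3846215 in M-Δx3,4. Named genes were members of 5 role lists, the 10 with the highest mean, those past the threshold, those at the edge of the minimum, and coding neighbours. Other genes were picked once their values were known. The members and lists were chosen with earlier results of these data known. Alternatives were TMM factors, library totals alone, DESeq2 1.42.0 (Wald test), limma-voom (limma 3.58.1), other filters, a single transcript for each gene, a block for the replicate number, no fold change minimum, genes whose window overlaps no counted coding region, and each library left out in turn.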

Additional observations from a re-analysis of the deposited data

How the results depend on the processing

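All results rest on 3 cultures a group and on few reads per gene, and 23 of the 65 genes changed the sign of their log2 fold change in at least 1 of the 15 other fits, while none was past the threshold in all 16. The number past the threshold and higher in M-Δx3,4 was 2 with TMM factors, library totals, DESeq2, no filter and filterByExpr, was 3 by limma-voom (AW011738, 4932412D23Rik and Gm16124, without Malat1 at 1.45, and with a median log2 fold change of 0.35 over the 65 genes), and ranged from 1 to 10 with each library left out. The number lower was 2 with no filter (adding Gm45193) and 0 with filterByExpr, which tested 63 of the 65 genes, and ranged from 0 to 3 with each library left out. With no filter, 1 gene had an edgeR adjusted p under 0.05, Malat1 at 0.0036, and no other fit gave one. The median log2 fold change was 0.013 without Control replicate 3 and ranged from 0.013 to 0.41 with each library left out. The 55 genes whose window overlaps no counted coding region had a median of 0.27 and the same counts past the threshold. Whether libraries of the same number were paired cannot be told from the labels. Deviations from the group means correlated at -0.17, 0.52 and -0.32 for same-number libraries. These correlations are not independent, because the deviations within a group sum to 0, and they do not decide the pairing. Control replicate 1 correlated with M-Δx3,4 replicate 3 at 0.53, and Control replicate 3 with M-Δx3,4 replicate 1 at 0.25. The remaining different-number pairs ranged from -0.37 to 0.05, and a block by different-number pairs was not fitted. With the replicate block, 1 gene was higher, 2 were lower, Malat1 did not pass (1.60), the median was 0.35 and 0 had an adjusted p under 0.05. The cause of these changes was not tested.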
